A study of Mus musculus with 10 samples.

Results

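The genes described here encode nuclear subunits of cytochrome c oxidase that exist as a ubiquitous form and a tissue form, such as that of muscle or brown fat. The related gene Cox7a2l is included. They were chosen by gene symbol, and all 10 (Cox4i1, Cox4i2, Cox6a1, Cox6a2, Cox6b1, Cox7a1, Cox7a2, Cox7a2l, Cox8a and Cox8b) were found among the 54347 gene records of the table. Poly A RNA of interscapular brown adipose tissue (iBAT) was sequenced in 10 mice aged 12 weeks that had been kept alone at 4 °C for 24 h. There were 5 ΔGm15551 mice (replicates 1, 2, 4, 5 and 7), in which exon 1 of the lncRNA gene Gm15551 had been deleted with CRISPR/Cas9 on a C57BL/6N background, and 5 wild type C57BL/6N mice (replicates 2, 3, 5, 6 and 7). The deletion is inherited through the germ line and is thus not limited to fat, the ΔGm15551 mice were of a single line that had been crossed back to wild type animals, and all 10 mice were exposed to cold, with no warm group in the comparison.

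Cytochrome c oxidase, or complex IV, is the last enzyme of the respiratory chain and hands electrons from cytochrome c to oxygen. Its catalytic core is encoded by mitochondrial DNA and is surrounded by nuclear encoded subunits, some of which have a tissue form that replaces the ubiquitous form in heart, skeletal muscle or brown fat. In brown fat the chain runs uncoupled from ATP synthesis through Ucp1, and Cox7a1 and Cox8b are widely used as markers of brown adipocytes.

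Depth was 9680976 to 15771170 counts per mouse, with a count for 20937 to 22507 records. Gm15551 had 0 counts in all 5 ΔGm15551 mice and 1, 2, 6, 7 and 0 counts in wild type replicates 2, 3, 5, 6 and 7, so that the library labelled wild type 7 could not be told from a knockout by this gene. The 10 brown adipocyte markers, led by Ucp1, Cidea and Elovl3, passed the filter on low counts and summed to 11913 to 16857 CPM (counts per 1000000 counts of the scaled library), and the 6 markers common to adipocytes, led by Fabp4, Cd36 and Plin1, to 16132 to 18984 CPM. The 16 skeletal muscle genes, led by Myh4, Atp2a1 and Acta1, ranged far more widely, from 3.55 to 3656 CPM, and were highest in wild type 7 (3656 CPM), ΔGm15551 4 (2354 CPM) and ΔGm15551 1 (1003 CPM). The 5 cardiac muscle genes summed to at most 0.893 CPM, with Mybpc3 at 0 in all mice.

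The paired forms are told apart by their coding sequences. The coding sequence of Cox7a1 (240 bases) shared 67.4% of aligned bases with that of Cox7a2 (249 bases), and that of Cox8b (210 bases) shared 68.1% with that of Cox8a (207 bases). The figures were 70.3% for Cox4i2 and Cox4i1 and 66.6% for Cox6a2 and Cox6a1. The longest run of identical bases within any of these 4 pairs was 14, and no word of 31 bases was shared, so that no read holding an exact match of that length could fit both members of a pair. The COX7A and COX8 pairs are shown because in these the tissue form was an abundant part of the pair's RNA. They were read from the GENCODE M21 transcripts (GRCm38), 5′ to 3′, and capitals mark bases that differ from the partner or have no partner in the alignment.
Cox7a1: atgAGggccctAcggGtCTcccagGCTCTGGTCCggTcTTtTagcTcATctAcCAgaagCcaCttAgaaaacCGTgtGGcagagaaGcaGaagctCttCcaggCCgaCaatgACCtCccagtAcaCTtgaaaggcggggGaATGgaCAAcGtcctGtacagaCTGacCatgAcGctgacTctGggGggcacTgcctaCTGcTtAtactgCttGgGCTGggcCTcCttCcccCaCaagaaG
Cox7a2: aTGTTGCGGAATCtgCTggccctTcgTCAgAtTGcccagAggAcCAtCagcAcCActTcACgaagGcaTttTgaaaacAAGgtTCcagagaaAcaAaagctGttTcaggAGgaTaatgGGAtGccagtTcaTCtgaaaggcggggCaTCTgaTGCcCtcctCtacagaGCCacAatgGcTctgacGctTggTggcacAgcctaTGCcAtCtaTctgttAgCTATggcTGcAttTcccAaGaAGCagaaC
Cox8b: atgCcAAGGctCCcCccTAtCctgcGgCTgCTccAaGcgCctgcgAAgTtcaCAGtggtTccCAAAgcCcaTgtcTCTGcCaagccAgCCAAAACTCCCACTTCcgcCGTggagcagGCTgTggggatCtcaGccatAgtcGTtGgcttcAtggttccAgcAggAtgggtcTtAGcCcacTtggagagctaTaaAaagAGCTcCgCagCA
Cox8a: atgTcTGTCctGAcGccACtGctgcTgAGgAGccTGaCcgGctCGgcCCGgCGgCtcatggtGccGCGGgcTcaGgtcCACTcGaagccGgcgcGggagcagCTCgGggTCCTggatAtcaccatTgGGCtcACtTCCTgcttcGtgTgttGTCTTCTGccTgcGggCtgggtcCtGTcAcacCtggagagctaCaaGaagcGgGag
Capitals lie along the whole length of all 4 sequences.

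The 10 genes differed widely in level. To compare genes, counts were divided by the length of the median protein-coding transcript and scaled to 1000000 in each library (TPM). On this scale Cox6a1, the ubiquitous form of subunit VIa, was highest, at 3056 ± 514 TPM (SD, n = 10 mice), and ranked 31 among all records with a length. Cox4i1 (2137 ± 419 TPM), Cox8b (2016 ± 423 TPM), Cox6b1 (1837 ± 267 TPM) and Cox8a (1755 ± 281 TPM) followed. These neighbours had overlapping ranges, although Cox4i1 exceeded Cox8b in 9 of 10 mice, Cox8b exceeded Cox6b1 in 9 and Cox6b1 exceeded Cox8a in 8.

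Below these the order was clear. Cox7a1 (1115 ± 225 TPM) was above Cox7a2 (561 ± 114 TPM), and Cox7a2 above Cox7a2l (183 ± 15.4 TPM), with no overlap of the ranges at any of these steps. Cox4i2 (7.22 ± 2.51 TPM) and Cox6a2 (5.01 ± 9.12 TPM) came last and overlapped, Cox4i2 being the higher in 8 of 10 mice. The mean of Cox6a2 was carried by wild type 7 (27.8 TPM). Its median was 0.628 TPM, and its mean without that mouse was 2.47 TPM. Of the tissue forms, Cox8b and Cox7a1 were thus among the abundant genes, and Cox4i2 and Cox6a2 were the lowest of the 10 genes. With these lengths Cox8b and Cox7a1 lay below the ubiquitous Cox6a1 and Cox4i1. The order of Cox8b and Cox4i1 depends on the length chosen. The median transcripts have 360 bases for Cox8b and 745 for Cox4i1, the merged exons 360 and 1550. With merged exons Cox8b comes above Cox4i1.

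**Figure D1:**
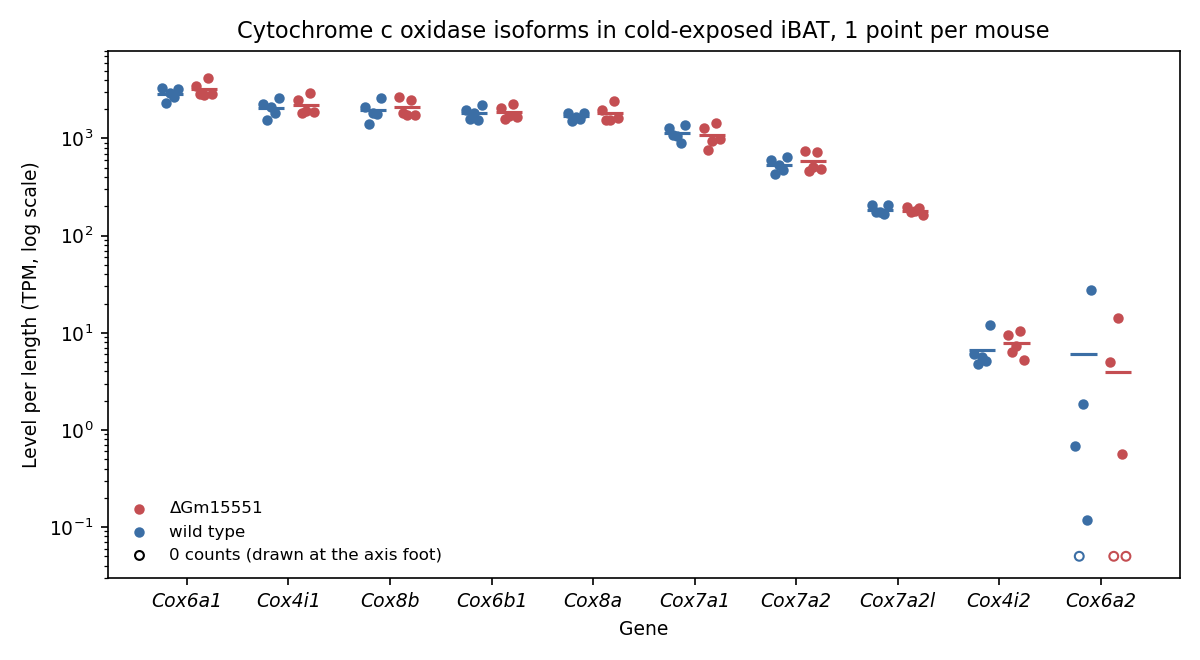
Level per length (TPM, log axis) of the 10 genes in each mouse, ordered by their mean, with wild type mice in blue and ΔGm15551 mice in red. Each point is a mouse, the bars are means of 5 mice, and open circles at the foot are mice with 0 counts. The groups overlap for every gene, and Cox6a2 is the only gene that spreads from 0 to 27.8 TPM.

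Subunit VIIa anchors complex IV in the inner membrane and has the most complete set of forms. Cox7a1 is the heart, muscle and brown fat form and Cox7a2 the ubiquitous form. Cox7a2l is a related gene whose product has been described as linking complex IV to complex III. Whether it does so in these C57BL/6N mice was not tested. Cox7a1 lies at chr7:30184144-30186078 (GRCm38, plus strand, up to 4 exons) and Cox7a2 at chr9:79755361-79759878 (minus strand). Cox7a1 had 437, 393, 376, 320.0 and 509 CPM in wild type 2, 3, 5, 6 and 7, and 478, 254, 323, 501 and 376 CPM in ΔGm15551 1, 2, 4, 5 and 7. Cox7a2 had 307, 234, 279, 251 and 366 CPM in the wild type mice and 414, 232, 262, 379 and 274 CPM in the ΔGm15551 mice, in the same order. Wild type 7 and ΔGm15551 1 and 5 were the 3 highest mice for both genes, ΔGm15551 2 was lowest for both, and the genotypes overlapped.

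Per length, Cox7a1 exceeded Cox7a2 in 10 of 10 mice, by 1.998 ± 0.244 times on average (1.64 to 2.53 times). Cox7a1 made up 66.4 ± 2.63% of the pair (SD, n = 10). With Cox7a2l counted as well, Cox7a1 made up 59.8 ± 2.73%, Cox7a2 30.2 ± 2.26% and Cox7a2l 10.02 ± 1.23% of the COX7A RNA. The ratio of Cox7a1 to Cox7a2 was 2.35 when lengths were taken from the merged exons of each gene and 1.81 with the longest protein-coding transcript.

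The share of Cox7a1 in the pair had a lower mean in ΔGm15551, a difference that did not pass the correction over the pairs. Cox7a1 made up 68.2, 71.7, 67.0, 65.7 and 67.7% of the pair in wild type 2, 3, 5, 6 and 7, and 63.4, 62.2, 65.0, 66.5 and 67.3% in ΔGm15551 1, 2, 4, 5 and 7. ΔGm15551 1, 2 and 4 lay below all wild type mice, and ΔGm15551 5 and 7 lay among them. The log2 count ratio of Cox7a1 to Cox7a2 was 0.51 ± 0.15 in wild type and 0.30 ± 0.13 in ΔGm15551 mice (SD, n = 5), a difference of -0.20 (SE 0.09, exact permutation test over 252 assignments, two-sided, p = 0.0476), and with Benjamini-Hochberg adjustment over the 4 pairs tested the exact permutation p was 0.190. With each mouse left out in turn the difference ranged from -0.24 to -0.14 and the adjusted exact permutation p from 0.127 to 0.413. Wild type replicates 5, 6 and 7 carry mouse numbers of a separate, higher series that no ΔGm15551 mouse has, so that for these mice number series and genotype cannot be told apart. Without them the difference was -0.33, and both remaining wild type mice (68.2 and 71.7%) lay above all ΔGm15551 mice (67.3% at most). The exact permutation p of 0.0476 (0.190 after adjustment) is then the smallest that the 21 assignments allow. This comparison could pass the correction only if all 4 pairs had that smallest p.

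**Figure D2:**
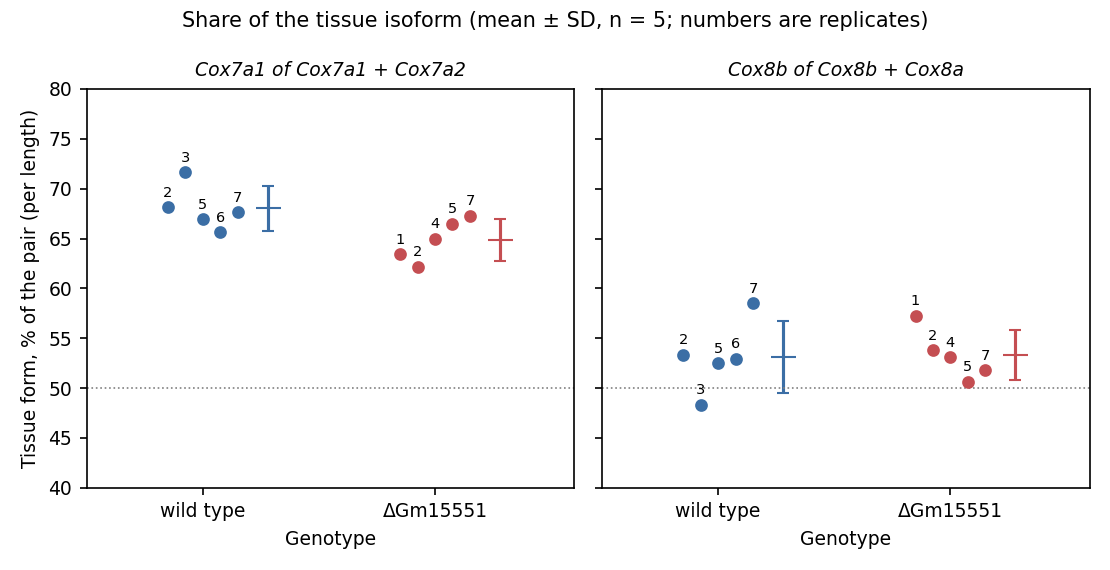
Share of the tissue form in the pair per length (%), left for Cox7a1 of Cox7a1 and Cox7a2 and right for Cox8b of Cox8b and Cox8a, with 1 labelled point per mouse and the mean ± SD of 5 mice beside them. The axis runs from 40 to 80% and the dotted line marks equal shares of the forms. Cox7a1 lies above the line in all 10 mice and Cox8b in all mice but wild type 3.

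Cox7a2l (chr17:83501918-83517330, minus strand) was the steadiest of the 10 genes. It had 174, 156, 156, 148 and 192 CPM in wild type 2, 3, 5, 6 and 7 and 182, 147, 154, 168 and 156 CPM in ΔGm15551 1, 2, 4, 5 and 7, so that the highest mouse exceeded the lowest by 1.31 times. The SD of log2 CPM within groups was 0.14, lower than for all but 10.4% of the genes tested. Of its words of 31 bases, 21.4% also occurred in the processed pseudogene Gm6969, which had at most 16 counts in a mouse.

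Subunit VIII is the smallest of the complex, with Cox8a as the ubiquitous form and Cox8b as the form of heart, muscle and brown fat in rodents. Cox8b (chr7:140898945-140900446, minus strand, 2 exons) had 581, 418, 526, 519 and 796 CPM in wild type 2, 3, 5, 6 and 7 and 806, 500.0, 488, 708 and 545 CPM in ΔGm15551 1, 2, 4, 5 and 7. Cox8a (chr19:7215153-7217616, minus strand) had 776, 682, 727, 705 and 863 CPM in the wild type and 919, 656, 658, 1054 and 774 CPM in the ΔGm15551 mice. The same 3 mice were highest for both genes, and the groups overlapped.

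The 2 forms of subunit VIII were nearly balanced per length. Cox8b made up 53.2 ± 2.94% of the pair (SD, n = 10), with a range from 48.3% in wild type 3 to 58.5% in wild type 7. Before division by length Cox8b had fewer counts than Cox8a in all 10 mice (log2 count ratio -0.71 to -0.12). Per length its level exceeded that of Cox8a in 9 of 10 mice, by 1.15 ± 0.139 times on average. The ratio rested on the lengths of 360 bases for Cox8b and 550 bases for Cox8a, and it was 1.64 when 200 bases were taken off each length. By genotype the log2 count ratio was -0.43 ± 0.21 in wild type and -0.42 ± 0.15 in ΔGm15551 mice, a difference of 0.01 (SE 0.11, exact permutation p = 0.937 before and after adjustment).

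Subunit IV binds ATP on the matrix side and exists as the ubiquitous Cox4i1 and as Cox4i2, which is best known from lung and from the response to low oxygen. Cox4i1 (chr8:120668222-120674207, plus strand) had 1289, 943, 1274, 1097 and 1651 CPM in wild type 2, 3, 5, 6 and 7 and 1546, 1046, 1121, 1717 and 1212 CPM in ΔGm15551 1, 2, 4, 5 and 7. Cox4i2 (chr2:152754173-152765037, plus strand) had 3.40, 2.83, 3.29, 2.99 and 7.39 CPM in the wild type and 5.80, 3.55, 4.17, 6.06 and 3.28 CPM in the ΔGm15551 mice. Wild type 7 had the most Cox4i2 and stood apart from the other wild type mice, whereas the ΔGm15551 mice filled the gap between them.

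Cox4i2 made up 0.263 to 0.455% of the pair per length, on 33 to 79 counts per mouse. The ratio of Cox4i2 to Cox4i1 per length was 0.00332, and 0.0064 with lengths from merged exons. It was also the most variable of the 9 genes that passed the filter, with an SD of log2 CPM within groups of 0.48, higher than in 85.0% of the genes tested. The log2 count ratio of Cox4i2 to Cox4i1 was -8.36 ± 0.33 in wild type and -8.19 ± 0.19 in ΔGm15551 mice, a difference of 0.17 (SE 0.17, exact permutation p = 0.333, adjusted 0.667). Without wild type 7 the difference was 0.31 (exact permutation p = 0.0397, and 0.159 after adjustment). Of the words of 31 bases of Cox4i1, 15.1% also occurred in Emc8, which overlaps it on the opposite strand and had 638 to 1238 counts per mouse.

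Subunit VIa stabilises the dimer of complex IV, with Cox6a1 as the ubiquitous form and Cox6a2 as the form of heart and skeletal muscle. Cox6a1 (chr5:115345642-115348981, minus strand) had 1444, 1071, 1342, 1225 and 1576 CPM in wild type 2, 3, 5, 6 and 7 and 1655, 1268, 1234, 1885 and 1417 CPM in ΔGm15551 1, 2, 4, 5 and 7. Cox6a2 (chr7:128205435-128206387, minus strand) had 4, 0, 14, 1 and 157 counts in the wild type mice and 39, 0, 100, 4 and 0 counts in the ΔGm15551 mice, or up to 16.1 and up to 7.44 CPM. A count of 0 allows up to 3 counts, or 0.190 to 0.310 CPM depending on the library, which covers counting error only.

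High and low values of Cox6a2 occurred in both genotypes. The mean was 3.51 CPM over the wild type mice, against 2.12 CPM over the ΔGm15551 mice (exact permutation p = 0.778). Without wild type 7 it was 0.356 against 2.12 CPM (exact permutation p = 0.413). It made up at most 0.851% of its pair, in wild type 7, and at most 0.504% in the other mice, and the difference in log2 count ratio to Cox6a1 was -0.46 (SE 2.11, exact permutation p = 0.810, adjusted 0.937).

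Cox6a2 varied across mice alongside the skeletal muscle genes. Their summed level was 99.9, 12.4, 356, 5.53 and 3656 CPM in wild type 2, 3, 5, 6 and 7 and 1003, 3.55, 2354, 107 and 101 CPM in ΔGm15551 1, 2, 4, 5 and 7. The 3 mice with the highest muscle sums, wild type 7, ΔGm15551 4 and ΔGm15551 1, were also the 3 highest in Cox6a2, in the same order. Of 13092 genes compared over the 10 mice by Pearson r of log2 CPM, the 3 most alike to Cox6a2 were Myom2 (r 0.99, rho 0.99), which encodes a protein of the sarcomere's M band, Myot (r 0.99, rho 0.97), which encodes the Z disc protein myotilin, and Ckmt2 (r 0.99, rho 0.97), the mitochondrial creatine kinase of striated muscle. Without the 2 mice farthest from the median of Cox6a2, r was 0.97 to 0.98. In bulk tissue a change in the number of cells of a type cannot be told apart from a change in RNA per cell.

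**Figure D3:**
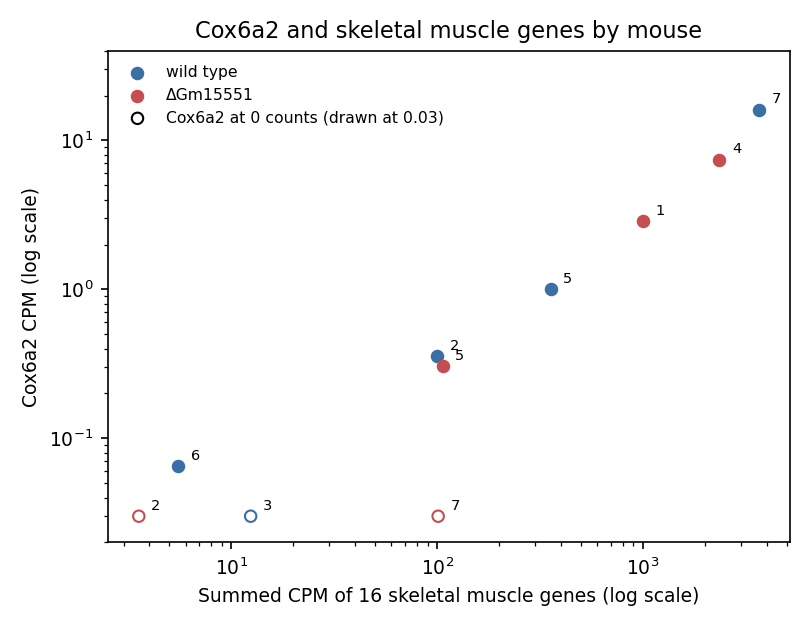
Cox6a2 (CPM, log axis) against the summed CPM of 16 skeletal muscle genes (log axis), 1 point per mouse labelled with its replicate, wild type in blue and ΔGm15551 in red. Open circles are mice with 0 counts of Cox6a2, drawn at 0.03. Mice of both genotypes lie along the same rise, from wild type 6 at 0.0651 CPM to wild type 7 at 16.1 CPM.

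Cox7a1 and Cox8b, which skeletal muscle also expresses, were abundant where the muscle genes were near 0. In ΔGm15551 2, where the muscle genes summed to 3.55 CPM and Cox6a2 had 0 counts, Cox8b still stood at 500.0 CPM and Cox7a1 at 254 CPM. ΔGm15551 4, with the next to highest muscle sum, had 488 CPM of Cox8b and 323 CPM of Cox7a1, below the mean of the 10 mice (589 and 397 CPM). The part of muscle RNA in the high values of wild type 7 and ΔGm15551 1 was not tested.

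Cox6b1 encodes subunit VIb, which faces the intermembrane space where cytochrome c docks, and its tissue form Cox6b2 is known from testis. Cox6b1 (chr7:30616861-30626151, minus strand) had 733, 633, 708, 608 and 908 CPM in wild type 2, 3, 5, 6 and 7 and 846, 596, 639, 873 and 690.4 CPM in ΔGm15551 1, 2, 4, 5 and 7. Cox6b2 was counted at 2.23 to 5.22 CPM, and the testis forms Cox7b2 and Cox8c had 0 counts in all mice. Ndufa4l2, a form of the subunit Ndufa4 that is known from hypoxia and pericytes, was at 6.17 to 14.3 CPM.

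The comparison of genotypes asked whether loss of Gm15551 changed these genes in cold-exposed iBAT. No gene of the table was called by edgeR's quasi-likelihood test at an adjusted p under 0.05 (0 of 13732 genes tested, 0.0% called), and 219 genes (1.59%) had an unadjusted p under 0.05. With DESeq2 and limma-voom 0 genes were called as well, with 228 and 237 at an unadjusted p under 0.05. Of the 10 isoform genes 9 passed the filter, Cox6a2 being too low, and 0 of the 9 was called or had an unadjusted p under 0.05. The 2 genotypes overlapped for all 10 genes, whereas 44 of all genes tested (0.32%) did not overlap.

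Most differences were smaller than their error. In log2 fold change (log2FC, ΔGm15551 minus wild type) Cox4i2 had the highest value, 0.21 (SE 0.29, 0.09 to 0.55 with single mice left out, the highest without wild type 7), followed by Cox6a1 with 0.16 (SE 0.15, 0.06 to 0.23 likewise), and Cox7a1 had the lowest, -0.08 (SE 0.19). The direction of Cox7a1 turned without wild type 7 (0.017) or ΔGm15551 2 (0.042). The median over the 9 genes was 0.10, beside 0.00 over all genes tested (-0.00087), and 7 of 9 lay above 0, beside 49.7% of all genes. This count was 4 of 9 without ΔGm15551 1, 5 of 9 without ΔGm15551 5, 9 of 9 without wild type 7 and 2 of 9 with the replicate block in 6 mice. The genes moved together across mice, so that they do not count as separate observations. The 95% intervals all included 0. The narrowest was that of Cox7a2l, from -0.27 to 0.20, and the widest that of Cox4i2, from -0.40 to 0.83. For Cox7a1 the interval ran from -0.48 to 0.33 and for Cox8b from -0.31 to 0.51. Every adjusted p of the 9 genes was 0.99981 (edgeR).

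**Figure D4:**
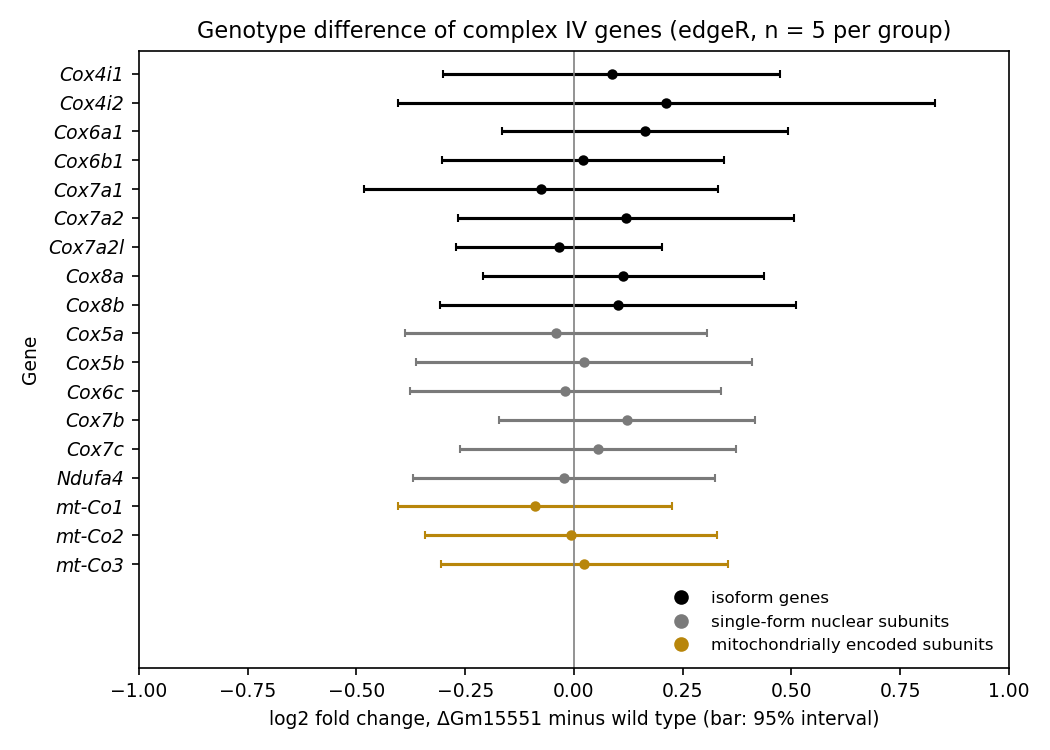
log2FC between genotypes (ΔGm15551 minus wild type, n = 5 each) of the 9 isoform genes that passed the filter (black), the 6 nuclear subunits with a single form (grey) and the 3 mitochondrially encoded subunits (gold). Points are edgeR estimates and bars 95% confidence intervals. All bars cross 0, and the bar of Cox4i2, from -0.40 to 0.83, is the widest.

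The other subunits of complex IV had no called gene either. Of the 6 nuclear subunits with a single form, led by Cox5b, Cox6c and Cox5a, 6 were tested and 0 called, with a median log2FC of 0.00 and values from -0.04 to 0.12 (Cox7b). The mitochondrially encoded core subunits mt-Co1, mt-Co2 and mt-Co3 had log2FC values of -0.09, -0.01 and 0.02, and 0 of 3 was called. Cox6b2 and Ndufa4l2 were the 2 tested genes of the other tissue forms, at 0.28 (SE 0.19) and 0.23 (SE 0.23), and neither was called.

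The isoform genes varied between mice of both genotypes, and most of them did so together. In wild type 7, ΔGm15551 1 and ΔGm15551 5 all 9 genes tested lay above their mean over the 10 mice, with a median deviation of 0.34, 0.29 and 0.37 on the log2 scale. In wild type 6 and ΔGm15551 2 0 of 9 lay above it, with medians of -0.21 and -0.24, and in wild type 3 the median was -0.33 with 1 of 9 above. The first 3 mice held the 3 highest values in 8 of the 9 genes, the exception being Cox7a2l, for which wild type 2 exceeded ΔGm15551 5. Together the 10 genes took 0.436 to 0.755% of all counts, least in wild type 3 and most in ΔGm15551 5.

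Other genes moved with them in these mice. The 6 nuclear subunits with a single form summed to 4531, 4578 and 4096 CPM in wild type 7, ΔGm15551 1 and ΔGm15551 5 and to 2833 to 3582 CPM in the other 7 mice. The 6 endothelial markers, led by Kdr, Cdh5 and Pecam1, also had their highest sums there, with 1458, 1525 and 1299 CPM against 826 to 1204 CPM. Ucp1 deviated by -0.41 and -0.57 in wild type 7 and ΔGm15551 1 but by 0.04 in ΔGm15551 5. The mitochondrially encoded subunits summed to 96914 CPM in wild type 7 and to 99221 CPM, the highest sum, in ΔGm15551 1, but to 76490 CPM in ΔGm15551 5, near the lowest sum of 74982 CPM. They also reached 97963 CPM in ΔGm15551 7, where the isoform genes were not high. The sum of pericyte markers, led by Rgs5, Cspg4 and Notch3, ran from 518 to 657 CPM and that of smooth muscle markers, led by Acta2, Myh11 and Tagln, from 79.1 to 303 CPM. The smooth muscle sum was highest in ΔGm15551 5 (303 CPM) and wild type 7 (224 CPM) and lowest in ΔGm15551 2 (79.1 CPM), but ΔGm15551 1 was at 145 CPM. The part of these cell types in the joint variation was not tested.

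**Figure D5:**
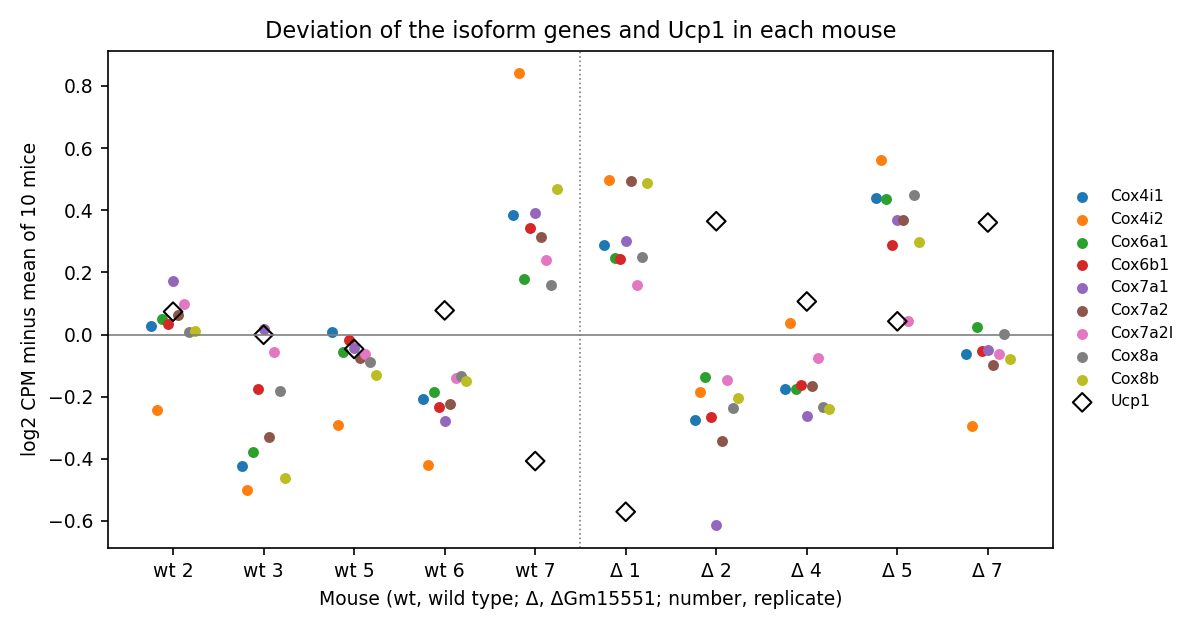
Deviation of log2 CPM from the mean of the 10 mice for the 9 isoform genes that passed the filter (dots, 1 colour per gene) and for Ucp1 (open diamonds), by mouse, wild type left and ΔGm15551 right of the dotted line. All 9 dots lie above 0 in wild type 7, ΔGm15551 1 and ΔGm15551 5, and all lie below 0 in wild type 6 and ΔGm15551 2.

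The relations among Cox4i2, Cox6a2, Cox7a1, Cox8b and Ucp1 were computed over the 10 mice with group means taken out, by permutation tests adjusted over 10 relations. Cox6a2 did not pass the filter. It had 0 counts in wild type 3 and ΔGm15551 2 and 7, and at most 4 in wild type 2 and 6 and ΔGm15551 5. In those mice its log2 CPM was set largely by the prior count of 2, which limits all its relations, also those in fewer mice. By Pearson's r 8 of the 10 passed the correction, and by Spearman's rho 5 did. Cox7a1 and Cox8b, the brown fat forms, rose and fell together (r = 0.78, permutation p = 0.00747, adjusted 0.0271, rho = 0.72, permutation p = 0.0227, adjusted 0.0494), with r = 0.81 without the 2 mice farthest from the median. Both had a higher r with ubiquitous forms, for which no test was run. Cox7a1 gave 0.93 with Cox6b1 and 0.91 with Cox7a2, and Cox8b gave 0.95 with Cox7a2 and 0.94 with Cox4i1. Cox4i2 and Cox8b gave r = 0.89 (permutation p = 0.00076, adjusted 0.0076) and rho = 0.76 (permutation p = 0.0142, adjusted 0.0472), with r = 0.82 without the 2 farthest. Cox4i2 gave r = 0.75 with Cox6a2 (permutation p = 0.0127, adjusted 0.0271, rho = 0.83, adjusted 0.0306) and r = 0.74 with Cox7a1 (permutation p = 0.0136, adjusted 0.0271, rho = 0.60, adjusted 0.0801), which did not pass by rho, and without the 2 farthest mice r was 0.76 and 0.61. Cox8b and Ucp1 went opposite ways (r = -0.77, permutation p = 0.00921, adjusted 0.0271, rho = -0.66, permutation p = 0.0432, adjusted 0.0618), but r was -0.27 without the 2 farthest mice, so that this relation rests on those mice. The other 3 tissue forms also went opposite to Ucp1, and r grew in size without the 2 farthest mice. It went from -0.76 (permutation p = 0.0163, adjusted 0.0271, rho = -0.82, adjusted 0.0306) to -0.92 for Cox4i2, from -0.70 (permutation p = 0.0218, adjusted 0.0311, rho = -0.72, adjusted 0.0494) to -0.86 for Cox6a2 and from -0.68 (permutation p = 0.0273, adjusted 0.0342, rho = -0.70, adjusted 0.0507) to -0.73 for Cox7a1, which did not pass by rho. In the 7 mice of the lower number series r was 0.83 for Cox7a1 and Cox8b, 0.84 for Cox4i2 and Cox8b and 0.80 for Cox4i2 and Cox7a1. For Cox4i2 and Cox6a2 it was lower, at 0.48, and Cox6a2 gave 0.26 with Cox7a1 and 0.27 with Cox8b. Against Ucp1 r was -0.70 for Cox8b, -0.75 for Cox4i2, -0.60 for Cox6a2 and -0.64 for Cox7a1.

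Leaving out the 3 mice with high values, a choice made after seeing the data, gave other values. In the other 7 mice r was lower for Cox7a1 and Cox8b (0.25) and for Cox4i2 and Cox8b (0.34), and it turned in sign for Cox8b and Ucp1 (0.36). It was -0.13 for Cox7a1 and Ucp1, -0.63 for Cox4i2 and Ucp1, -0.89 for Cox6a2 and Ucp1, 0.07 for Cox4i2 and Cox7a1 and 0.89 for Cox4i2 and Cox6a2. Cox6a2 gave 0.17 with Cox7a1 and 0.08 with Cox8b. These values are a description, since the 3 mice were set aside for their joint high values of these genes, which by itself lowers a shared variation. Cox6a2 was not shown to be related to Cox7a1 (r = 0.43, permutation p = 0.218, adjusted 0.218) or Cox8b (r = 0.57, permutation p = 0.0875, adjusted 0.0972) over the 10 mice, and without the 2 farthest mice r was 0.59 and 0.81.

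The genes most like the 2 brown fat forms were others than each other. Over the 10 mice and 13091 genes, Cox8b was most like Elob (r 0.99), which encodes elongin B, Id3 (r 0.99), an inhibitor of helix-loop-helix factors, and Tspan7 (r 0.99), a tetraspanin. Cox7a1 was most like Gm15500 (r 0.98), Rpl36al (r 0.97), a gene of the large ribosomal subunit, and Plekhg2 (r 0.97). Cox4i2 was most like Fam89a (r 0.98), Ccnd3 (r 0.97), which encodes cyclin D3, and Coro2b (r 0.97), which encodes an actin-binding coronin. Spearman's rho was 0.87 to 0.99 for these 9 genes and r without the 2 farthest mice was 0.92 to 0.98, and no p is given because they were picked as the highest of all genes.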

How the data were processed

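Poly A RNA of iBAT from 10 mice was sequenced in paired-end reads. Per the labels and the methods, the authors trimmed reads (cutadapt) and obtained counts by mapping to the transcripts of GENCODE M22 with salmon, or M22 joined with RNAcentral 5, on GRCm38; tool versions and whether strand was used are not given in the sources used here. The values deposited by the authors were estimated counts per gene (expected counts), already whole numbers, with no scaling, and were used as deposited. Salmon divides reads that fit several transcripts by an estimate, so values of genes with shared words are uncertain. Nothing states that the mice came from separate litters, and p-values measure the spread between these mice.

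The genotypes were compared with edgeR 4.0.16 in R 4.3.3 (filterByExpr with minimum count 10 and minimum total count 15, TMM, robust glmQLFit, glmQLFTest, genotype only), with Benjamini-Hochberg adjustment over all 13732 genes tested at a threshold of 0.05. CPM were TMM-scaled, and log2 CPM had a prior count of 2. Lengths, loci and coding sequences came from GENCODE M21 (99.5% of gene IDs found), and TPM used the median protein-coding transcript. Isoform ratios had a pseudocount of 0.5 and were compared by exact permutation of the mice. Alternatives were DESeq2 1.42.0, limma-voom (limma 3.58.1), other scalings, no filter, other lengths, a pseudocount of 1, leaving out mice and a replicate block. The steps were tested on simulated data. No pair of libraries within a genotype was a duplicate (smallest chi-square per degree of freedom 12.4). The genes named were the 10 isoform genes, Gm15551, and of each list those at an unadjusted p under 0.05 and up to 3 most abundant, with the 3 genes most alike to each of Cox4i2, Cox6a2, Cox7a1 and Cox8b at a mean CPM of at least 1. Other genes named were chosen after their values were seen. The isoform genes and the lists were chosen with earlier results of these data known.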

Additional observations from a re-analysis of the deposited data

Results flagged for a closer look

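Dixon's test was run on each genotype's 5 mice for the 10 isoform genes, the 4 isoform ratios and the summed gene lists, 52 groups in all. It marked 6 values, where about 2.6 would be marked by chance, and 5 of the 6 belong to wild type 7. In this mouse Cox4i2 was at 7.39 CPM, against at most 3.40 CPM in the other wild type mice, and its log2 count ratio to Cox4i1 was -7.79. Cox6a2 was at 16.1 CPM in the same mouse, the skeletal muscle genes summed to 3656 CPM, and the brown adipocyte markers had their lowest sum, 11913 CPM. The sixth value was the brown adipocyte sum of ΔGm15551 1, 12040 CPM, the lowest of its group.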

How the results depend on the processing

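In every alternative 0 genes were called by genotype, with 168 to 869 at an unadjusted p under 0.05, and over 17 alternatives the adjusted p of the isoform genes was at least 0.899 (edgeR, DESeq2 or limma-voom). No log2FC of an isoform gene was called in the first place, and directions turned easily. With single mice left out the ranges were -0.025 to 0.21 for Cox4i1, -0.053 to 0.12 for Cox6b1, -0.19 to 0.042 for Cox7a1, 0.00 to 0.22 for Cox7a2 (-0.0025 at the lowest), -0.081 to 0.025 for Cox7a2l and -0.020 to 0.25 for Cox8b. The ranges were 0.064 to 0.23 for Cox6a1 and 0.000044 to 0.18 for Cox8a, the range for Cox4i2 was 0.09 to 0.55, the highest without wild type 7. The log2 ratio difference ran from -1.58 to 0.74 for Cox6a2/Cox6a1 and from -0.058 to 0.089 for Cox8b/Cox8a, and it was 1.35 for Cox6a2/Cox6a1 with wild type 5, 6 and 7 left out, which also gave a ratio difference of 0.14 for Cox8b/Cox8a and 0.26 for Cox4i2/Cox4i1 and a log2FC of 0.25 for Cox4i1, 0.55 for Cox4i2, 0.25 for Cox6a1, 0.096 for Cox6b1, 0.21 for Cox7a2 and 0.29 for Cox8b. Replicate numbers 2, 5 and 7 occur in both genotypes. The deviations of same-numbered mice had correlations of -0.07, 0.05 and -0.40. These values are too few to decide whether the numbers mark a pairing. With the replicate block in these 6 mice the log2FC was -0.11 for Cox4i1, -0.072 for Cox4i2, -0.13 for Cox6b1, -0.13 for Cox7a2, -0.11 for Cox8b, -0.27 for Cox7a1, -0.15 for Cox7a2l, 0.049 for Cox6a1 and 0.044 for Cox8a, and the ratio difference was -4.67 for Cox6a2/Cox6a1, 0.028 for Cox4i2/Cox4i1, -0.16 for Cox8b/Cox8a and -0.15 for Cox7a1/Cox7a2 (exact permutation p = 0.25, the smallest that 3 pairs allow). With merged exons the per-length ratio was 0.0064 for Cox4i2/Cox4i1, 2.35 for Cox7a1/Cox7a2 and 1.29 for Cox8b/Cox8a. With lengths shortened by 200 bases, chosen after seeing the data, it was 2.56 and 1.64 for the latter 2. The planned count with pseudogene copies added was not run, since no record shared most of the words of an isoform gene. Depth limits Cox4i2 and Cox6a2 most, with at most 79 and 157 counts in a mouse.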

Other observations

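The factors that assemble complex IV and the regulators named for it had no called gene either. Of the 28 assembly and supercomplex factors in the table, led by Cox17, Coa5 and Higd1a, 27 were tested and 0 called, with a median log2FC of -0.03. Cox19, a factor of copper delivery to the complex, was the only one with an unadjusted p under 0.05, with means of 63.4 CPM over the wild type and 74.9 CPM over the ΔGm15551 mice (log2FC 0.24, SE 0.09, unadjusted 0.0203, adjusted p = 0.99981, edgeR). Of the 16 regulators and cytochrome c genes, led by Chchd2, Epas1 and Cycs, 15 were tested and 0 called, and Cyct, the testis form of cytochrome c, had 0 counts in all mice. The sum of the assembly factors was 1681 to 1837 CPM, while single factors varied more between mice, such as Cox17 from 213 to 422 CPM and Coa5 from 192 to 361 CPM. Among the brown adipocyte markers, Adrb3, the receptor of the cold signal, had a log2FC of 0.50 (SE 0.14, unadjusted 0.00254, adjusted p = 0.99981, edgeR), and was not called.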
